A study of Mus musculus with 2 samples.

Results

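The genes described here are those of the interferon response and of nucleic acid sensing in mouse colon nuclei. They were taken from a list of 47 symbols matched to the gene symbols of the count tables. Of these, 46 were found among 32285 features, and Mx1 was not analysed here. The members were ordered by role into 11 sensing and signalling genes, 7 receptors and transcription factors, 21 interferon-induced genes and 7 interferon-induced GTPases. Every member with at least 20 UMIs over both libraries (UMIs count captured RNA molecules) was given a ratio, which 45 members reached over all nuclei. The remaining member, Trex1, a DNA exonuclease that degrades cytosolic DNA, was listed at 0 in both libraries, and its annotated body lies inside that of Atrip on the same strand.

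Cells detect foreign or misplaced nucleic acid through sensors such as Cgas, which binds DNA in the cytosol, and Ifih1 and Ddx58, which bind double-stranded RNA. Sensor signals pass through Sting (Tmem173) or Mavs to the kinase Tbk1 and the factor Irf3, which switch on type I interferon genes. Secreted interferon binds the Ifnar1 and Ifnar2 receptor, and factors that include Stat2 and Irf9 then induce antiviral genes through the interferon-stimulated response element, a sequence motif in their promoters. Interferon gamma acts through a separate receptor and induces Irf1 and the GTPases that attack intracellular microbes.

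Nuclei came from the whole colon of male C57BL/6 mice aged 15 weeks, Pink1 knockout or wild-type littermates. The Pink1 kinase flags depolarised mitochondria for mitophagy, and no other allele or agent is named for either group. Each genotype was 1 library, pooled from sorted nuclei of 3 mice, and the labels give batch 1 to the wild-type and batch 2 to the knockout library. Genotype, library and batch therefore cannot be told apart, replicates are lacking, and genotypes were not compared by any test.

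The kept nuclei numbered 8256 in the wild-type library (median 1624.5 UMIs) and 10966 in the knockout library (median 1571), and 28 barcodes occurred in both libraries. Levels are CPM (UMIs scaled to a fixed total of nuclear-encoded UMIs per library and class), ratios are knockout over wild-type library, and all intervals are 95% intervals that cover counting error only. The intervals of levels and of UMI ratios take each UMI as an independent count. Where few nuclei hold many UMIs of a gene, these intervals are too narrow. In summed nuclei, more nuclei carrying a transcript and more RNA per nucleus cannot be told apart, so numbers of nuclei are given beside the main values. The Pink1 transcript itself had 171 wild-type and 113 knockout UMIs, a ratio of 0.537 (0.420 to 0.686), and whether the counted 3' end lies outside the altered part of the gene was not tested. The immediate-early genes Egr1 and Fos stood at 36.4 and 60.9 CPM in wild-type nuclei and at 978 and 485 CPM in knockout nuclei, and their part in the results below was not tested.

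The promoters of the members are shown because interferon acts on them through known motifs. RefSeq promoter windows (GRCm38.p6, 250 bases before to 50 after the start site) were found for 38 of the 47 listed symbols, and the missing ones were Tmem173, Dhx58, Zbp1, Oas2, Mx1, Usp18, Parp14, Ifi27 and Iigp1. The core of the interferon-stimulated response element was searched as GAAANNGAAA, or TTTCNNTTTC on the other strand, and matches may overlap each other. It was held by 3.44% of all 32851 windows and by 18 of the 38 members. By role, these were 6 of 6 GTPases, 9 of 17 induced genes, 1 of 7 receptors and transcription factors (Stat2) and 2 of 8 sensing genes (Ifih1 and Ddx58). The gamma-activated pattern TTCNNNGAA, which reads the same on both strands, was held by 8.3% of windows and by 13 members, among them 4 of the 7 receptors and transcription factors. A match is a description of the letters and not evidence of a bound site.

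The stretches below run from 130 bases upstream of the start site to the base before it, 5′ to 3′ on the gene's strand, with matches to the response element core in capitals. The first 4 belong to induced genes, the next 4 to GTPases, and Samhd1 and Tbk1 are shown as members without a match.
Isg15, chr4:156200819-156200948, minus strand: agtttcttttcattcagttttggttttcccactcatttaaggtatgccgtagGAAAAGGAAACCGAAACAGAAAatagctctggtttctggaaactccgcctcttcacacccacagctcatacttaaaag
Ifit1, chr19:34640759-34640888, plus strand: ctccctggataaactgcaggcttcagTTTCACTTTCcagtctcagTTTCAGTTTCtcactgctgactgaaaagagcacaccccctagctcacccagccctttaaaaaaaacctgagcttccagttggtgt
Oas3, chr5:120777660-120777789, minus strand: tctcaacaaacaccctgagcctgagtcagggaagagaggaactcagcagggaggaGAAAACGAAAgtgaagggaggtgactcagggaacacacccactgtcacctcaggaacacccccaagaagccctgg
Rsad2, chr12:26456453-26456582, minus strand: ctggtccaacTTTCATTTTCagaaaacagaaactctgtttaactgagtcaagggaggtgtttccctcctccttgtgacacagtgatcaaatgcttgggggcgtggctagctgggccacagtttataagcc
Gbp2, chr3:142620533-142620662, plus strand: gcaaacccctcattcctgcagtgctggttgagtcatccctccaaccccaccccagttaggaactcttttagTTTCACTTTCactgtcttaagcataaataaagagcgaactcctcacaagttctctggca
Igtp, chr11:58199426-58199555, plus strand: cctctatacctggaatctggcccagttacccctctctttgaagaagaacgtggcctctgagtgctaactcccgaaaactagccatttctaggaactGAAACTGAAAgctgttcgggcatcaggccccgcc
Irgm1, chr11:48871421-48871550, minus strand: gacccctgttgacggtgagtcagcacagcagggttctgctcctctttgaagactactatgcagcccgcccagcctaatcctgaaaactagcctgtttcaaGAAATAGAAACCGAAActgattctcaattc
Irgm2, chr11:58214847-58214976, plus strand: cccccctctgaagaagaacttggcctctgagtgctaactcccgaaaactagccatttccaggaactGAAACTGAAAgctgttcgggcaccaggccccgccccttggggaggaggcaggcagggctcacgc
Samhd1, chr2:157135097-157135226, minus strand: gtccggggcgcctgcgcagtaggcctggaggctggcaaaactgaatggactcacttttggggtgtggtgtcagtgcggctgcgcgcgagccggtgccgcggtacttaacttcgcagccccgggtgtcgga
Tbk1, chr10:121586795-121586924, minus strand: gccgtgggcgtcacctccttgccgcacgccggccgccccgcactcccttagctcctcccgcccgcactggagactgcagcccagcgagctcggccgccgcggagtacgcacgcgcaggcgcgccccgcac
Isg15 held 3 overlapping matches in tandem, and Ifit1 held 2 separate ones. Igtp and Irgm2 shared an identical run of 38 bases in these stretches. The annotated bodies of this pair overlap on the same strand, as do those of Irf9 and Rnf31, so their counts cannot be fully told apart. The Oas, Ifit and Gbp families have close copies, which makes the split of reads among them uncertain.

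**Figure D1:**
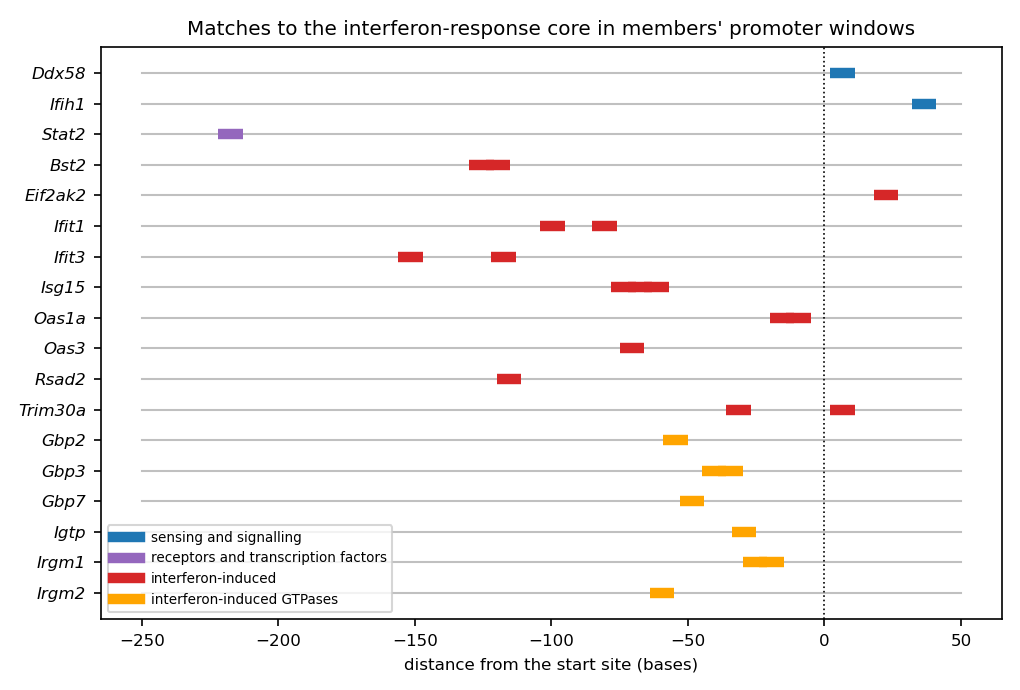
Positions of matches to the response element core in the promoter windows of the 18 members that held 1 or more, with the distance from the start site in bases on the x axis and members by role on the y axis. Matches in the 6 GTPases all lay upstream of the start site, and those of Ddx58, Ifih1 and Eif2ak2 lay after it. Trim30a held 1 match upstream in the window of 1 start site and 1 after it in the window of another.

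Over all nuclei, 12 of the 45 members were at least 1.5-fold higher in the knockout library and none was 1.5-fold lower, while over all 16563 genes with enough UMIs 6.51% were higher and 8.07% lower by that measure. The median log2 ratio was 0.24 for 10 sensing and signalling genes, 0.09 for 7 receptors and transcription factors, 0.38 for 21 induced genes and 0.80 for 7 GTPases. The median over all genes was -0.02. Members at least 1.5-fold higher were 1 of 10 sensing genes, 1 of 7 receptors and transcription factors, 6 of 21 induced genes and 4 of 7 GTPases. With classes weighted as in the wild-type library, Irf7 (1.46), Ifit1 (1.43) and Gbp3 (1.47) among these fell below 1.5-fold. Of the 18 measured members with a response element core in their promoter window, 7 were at least 1.5-fold higher, and of the 19 measured members whose window held none, 2 were. Core and role overlap in part, since all 6 GTPases in the table held a core, and 3 of these were higher. Among induced genes, 4 of 9 with a core and 1 of 8 without were higher. The share of all genes with a core that were higher is not given here. Of the 12 higher members, 3 (Iigp1, Zbp1 and Oas2) had no window.

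**Figure D2:**
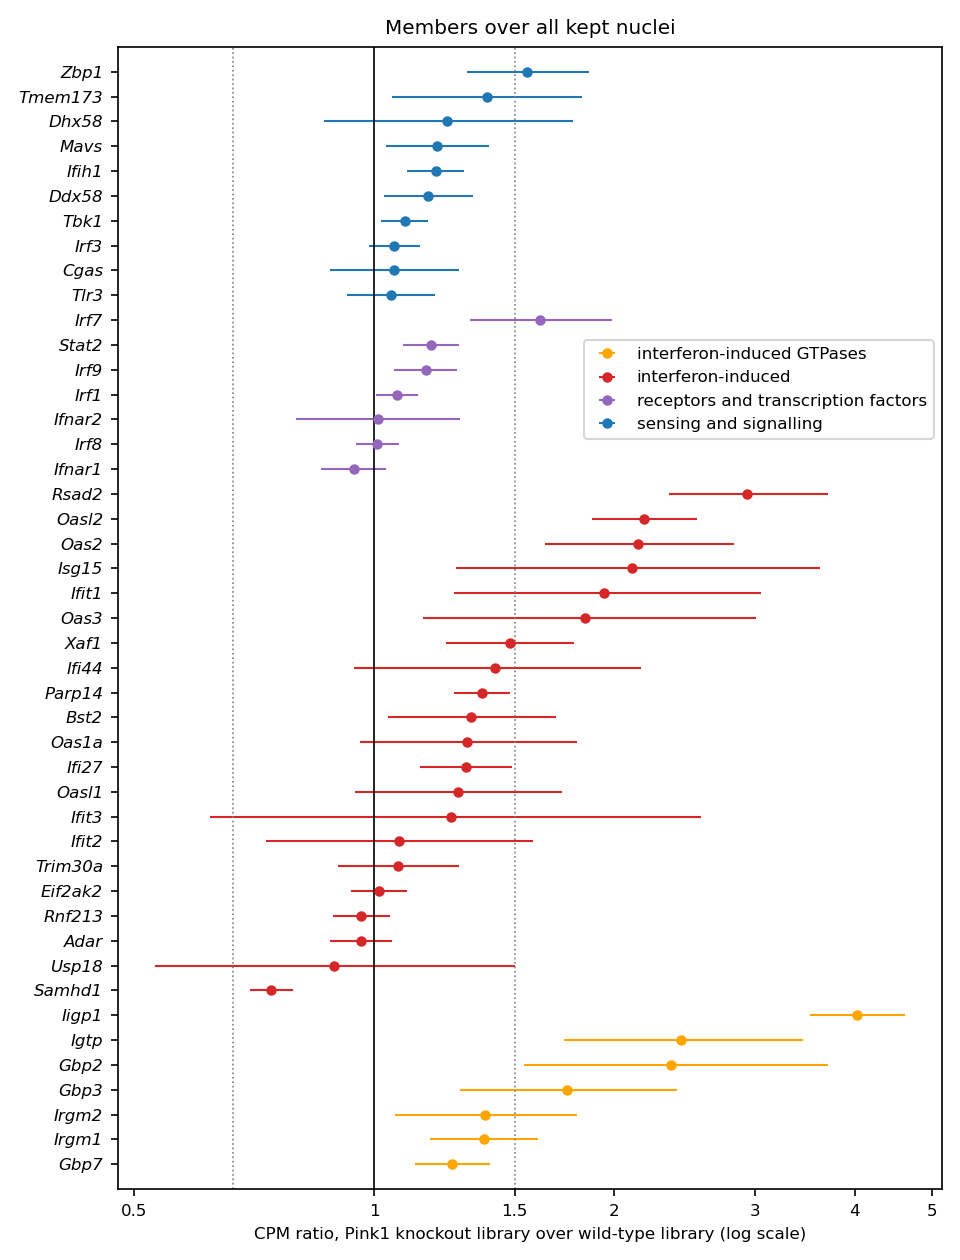
CPM ratio of each of the 45 members over all kept nuclei on a log axis, with 95% counting intervals, grouped and coloured by role and with dotted lines at 1.5-fold in each direction. Iigp1 has the highest ratio at 4.02 and Samhd1 the lowest at 0.744.

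Among the DNA sensing genes, Cgas, the enzyme that makes the second messenger cGAMP on DNA, had 205 wild-type and 267 knockout UMIs (13.6 and 14.4 CPM). Its level was highest in crypt-base and proliferating nuclei, with 118 and 195 UMIs (32.8 and 47.9 CPM), although the fibroblast interval overlapped in the wild-type library. Tmem173, the cGAMP receptor Sting, had 87 and 148 UMIs (5.77 and 7.98 CPM). Only fibroblasts, with 7 and 25 UMIs (11.4 and 23.5 CPM), and crypt nuclei held at least 20 of its UMIs, and their intervals overlapped. Some classes with fewer UMIs of it stood higher. Among them were T and innate lymphoid nuclei (36.9 and 113 CPM, from 3 and 8 UMIs) and blood endothelium (47.4 and 45.0 CPM, from 4 and 7 UMIs). Zbp1, a sensor of left-handed nucleic acid that can start necroptosis, had 197 and 377 UMIs (13.1 and 20.3 CPM), a ratio of 1.56 (1.31 to 1.86). It was the only sensing gene at least 1.5-fold apart over all nuclei.

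Zbp1 (ENSMUSG00000027514, chr2:173206612-173218923, minus strand, GRCm38) had most of its UMIs in epithelial nuclei, with 155 of 197 in the wild-type and 328 of 377 in the knockout library. Goblet nuclei held 84 and 121 UMIs (41.8 and 54.3 CPM), a level near that of T and innate lymphoid nuclei, which rests on 4 UMIs in each library (49.1 and 56.5 CPM). Colonocytes held 21 and 126 UMIs (10.1 and 40.9 CPM), a ratio of 4.03 (2.53 to 6.74), carried by 19 of 1053 wild-type and 96 of 1740 knockout nuclei. In the wild-type library colonocytes thus lay below goblet nuclei, and in the knockout library the intervals of these classes overlapped. Each of the 3 colonocyte clusters, looked at after the values were seen, had a ratio above 2, at 5.33, 4.87 and 2.70.

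Among the RNA sensors, Ifih1 had 978 and 1437 UMIs (64.9 and 77.5 CPM) and was highest in colonocytes, at 135.7 and 163 CPM, above goblet nuclei at 87.1 and 114 CPM. Ddx58, the sensor RIG-I, had 409 and 588 UMIs (27.1 and 31.7 CPM). Its colonocyte count was 29 and 84 UMIs, a ratio of 1.95 (1.26 to 3.08). The regulator Dhx58 had only 54 and 82 UMIs (3.58 and 4.42 CPM), of which 3 and 22 were in colonocytes. Tlr3, the endosomal receptor for double-stranded RNA, had 439 and 567 UMIs (29.1 and 30.6 CPM) and its highest level, from 20 and 15 UMIs, in macrophage and dendritic nuclei.

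The shared signalling genes were more even. Mavs, the mitochondrial adaptor of the RNA sensors, had 300 and 443 UMIs (19.9 and 23.9 CPM) and nearly the same level in unnamed epithelium (22.2 and 27.1 CPM) and crypt nuclei (21.7 and 25.8 CPM). Tbk1 had 1461 and 1963 UMIs (96.9 and 106 CPM), with overlapping intervals in its highest classes, macrophage and dendritic nuclei and colonocytes. In fibroblasts it had 29 and 83 UMIs, a ratio of 1.65 (1.07 to 2.61). Irf3 had 1292 and 1685 UMIs (85.7 and 90.9 CPM), between 94.7 and 122 CPM in blood endothelium, and its intervals in crypt nuclei and unnamed epithelium overlapped too.

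The interferon receptor chains were not higher in the knockout library. Ifnar1 had 830 and 962 UMIs (55.1 and 51.9 CPM), and Ifnar2 132 and 164 UMIs (8.76 and 8.85 CPM). Ifnar1 stood far above other large classes in macrophage and dendritic nuclei, at 281 and 327 CPM, and its goblet count of 76 and 53 UMIs gave a ratio of 0.629 (0.434 to 0.905). Stat2 had 1043 and 1511 UMIs (69.2 and 81.5 CPM), and its partner Irf9 822 and 1173 UMIs (54.5 and 63.3 CPM). Stat2 was highest in blood endothelium (237 and 270.2 CPM). Irf9 was highest by the mean of the libraries in lymphatic endothelium (74.7 and 119 CPM, from 8 and 17 UMIs), although macrophage and dendritic nuclei stood above it in the wild-type library, at 83.9 CPM. These endothelial classes held 73 to 162 nuclei per library and were added after the values were seen.

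Irf7, the factor that amplifies type I interferon, had 146 and 290 UMIs (9.68 and 15.6 CPM), a ratio of 1.62 (1.32 to 1.98). It was mostly a colonocyte transcript, with 71 and 142 UMIs there (34.3 and 46.1 CPM, ratio 1.34). Colonocytes made up 12.8% of the wild-type library and 15.9% of the knockout library. With classes weighted as in the wild-type library the Irf7 ratio was 1.46.

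Irf1 and Irf8 hardly differed over all nuclei and did so in fibroblasts. Irf1 had 1852 and 2431 UMIs (123 and 131 CPM) over all nuclei, and 219 and 173 CPM in colonocytes, its highest class. In fibroblasts it had 30 and 123 UMIs (49.0 and 116 CPM), a ratio of 2.36 (1.58 to 3.65), in 29 of 395 and 83 of 753 nuclei. This ratio moved between 1.78 and 3.60 over the alternative settings and was 3.90 in fibroblast cluster 16 alone. Irf8, best known from myeloid cells, had 1773 and 2202 UMIs (118 and 119 CPM) and was highest in macrophage and dendritic nuclei, at 696 and 655 CPM. In fibroblasts it had 56 and 221 UMIs (91.4 and 208 CPM), a ratio of 2.28 (1.69 to 3.11), in 50 and 151 nuclei. The 8 macrophage and dendritic markers summed to 31 and 78 UMIs in the same fibroblast nuclei (50.6 and 73.4 CPM), and Flt3, Itgax and Adgre1 were at 0 there in the wild-type library; their part in the Irf8 value was not tested.

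In fibroblasts 3 of 7 receptors and transcription factors were at least 1.5-fold higher and none was lower, beside 10.3% and 10.7% of 9160 genes. Their median log2 ratio was 0.51 and that of all genes -0.02. In colonocytes the same list had none of 6 beside 7.00% of 10314 genes, and a median of 0.06 beside -0.05.

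**Figure D3:**
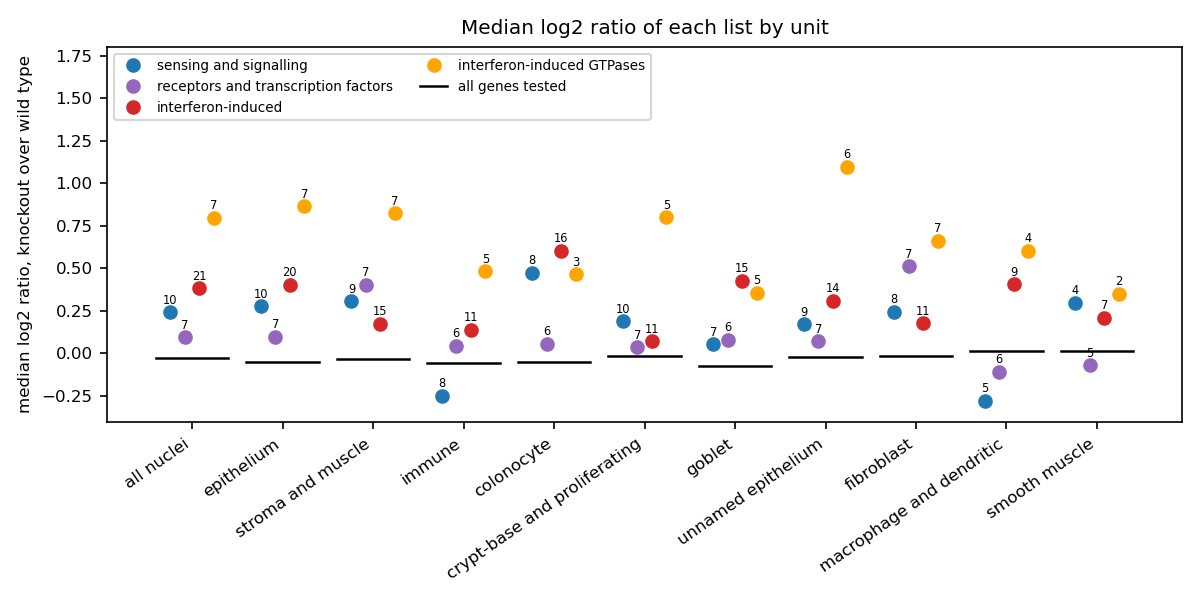
Median log2 ratio of the members of each role with at least 20 UMIs in a unit (points, with the number of members above each) and of all genes tested (black lines), for all nuclei, 3 compartments and 7 classes on the x axis. The GTPase median is highest in unnamed epithelium at 1.10, the induced-gene median highest in colonocytes at 0.60, and the sensing median lowest in macrophage and dendritic nuclei at -0.28.

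Over the whole epithelium 8 of 20 measured induced genes were at least 1.5-fold higher and 2 lower, beside 4.98% and 8.75% of 14829 genes. Their largest class medians were those of colonocytes and goblet nuclei. Of 16 measured in colonocytes, 8 were at least 1.5-fold higher and 1 lower (beside 7.00% and 12.2% of genes), with a median log2 ratio of 0.60. The colonocyte class held its clusters in different shares, since cluster 10 gave 457 of the 1053 nuclei in the wild-type library but 407 of the 1740 in the knockout library. What this adds to the colonocyte ratios was not tested. Of 15 in goblet nuclei, 7 were higher and none lower (6.28% and 12.1% of genes), with a median of 0.43. In the same goblet nuclei the 11 colonocyte markers summed to 409 and 816 UMIs (204 and 366 CPM), none of them at 0 in either library, and their part in the goblet values was not tested. The goblet median was 0.014 after nuclei were thinned to 500 UMIs, and the cause of this shift was not tested. In crypt-base and proliferating nuclei the count was 1 of 11 beside 5.06% of genes, with a median of 0.07.

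Rsad2 (ENSMUSG00000020641, chr12:26442746-26456452, minus strand), which encodes viperin, an enzyme that makes a chain-terminating nucleotide, had 99 wild-type and 357 knockout UMIs (6.57 and 19.3 CPM), a ratio of 2.93 (2.34 to 3.70). Its promoter stretch above holds 1 match to the response element core. In colonocytes it had 58 and 139 UMIs (28.0 and 45.1 CPM), a ratio of 1.61 (1.18 to 2.23), and in colonocyte cluster 10 alone 5 and 16 UMIs, a ratio of 3.66. In goblet nuclei it had 9 and 142 UMIs (4.48 and 63.7 CPM), a ratio of 14.2 (7.29 to 31.8). These goblet UMIs lay in 9 wild-type and 33 knockout nuclei, and the top knockout nucleus held 44 of them, or 31.0%. Over the alternative settings, 1 of which left out the top nucleus of each library, the goblet ratio moved between 8.92 and 15.6.

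Oasl2 (ENSMUSG00000029561, chr5:114896936-114912234, plus strand), an oligoadenylate synthetase-like protein, had 240 and 643 UMIs (15.9 and 34.7 CPM), a ratio of 2.18 (1.88 to 2.54). It was found in 162 and 420 nuclei. In colonocytes it had 83 and 278 UMIs (40.1 and 90.2 CPM), a ratio of 2.25 (1.76 to 2.91), in 45 and 155 nuclei. Goblet nuclei held 37 and 116 UMIs (18.4 and 52.1 CPM, ratio 2.83), fibroblasts 18 and 58 (29.4 and 54.6 CPM, ratio 1.86) and unnamed epithelium 50 and 90 (11.2 and 17.3 CPM, ratio 1.55). The difference was not found in every cluster: colonocyte clusters 6 and 7 had ratios of 2.15 and 2.07, and colonocyte cluster 10 had 16 and 12 UMIs, a ratio of 0.858.

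The oligoadenylate synthetases, which activate RNase L on double-stranded RNA, were mostly scarce. Oas2 had 76 and 200 UMIs (5.04 and 10.8 CPM), a ratio of 2.14 (1.64 to 2.83), with 30 and 84 UMIs in goblet nuclei (14.9 and 37.7 CPM, ratio 2.53). Its level was highest in macrophage and dendritic nuclei, with 15 and 39 UMIs (62.9 and 120.5 CPM, ratio 1.91). In unnamed epithelium it had 15 and 36 UMIs, a ratio of 2.06 (1.10 to 4.05). The ratio was 0.874 at resolution 0.5. There a cluster like cluster 2 of this class was not counted as epithelium, and fewer nuclei were named crypt-base and proliferating. Oas3 had 27 and 61 UMIs (1.79 and 3.29 CPM), a ratio of 1.84 (1.15 to 3.01), and 19 and 29 of its UMIs were in colonocytes. Oas1a had 69 and 111 UMIs (4.58 and 5.99 CPM), and Oasl1 76 and 119 (5.04 and 6.42 CPM), both highest in colonocytes, with counting intervals over all nuclei that include 1. Oasl1 had 18 and 40 UMIs in goblet nuclei (8.96 and 18.0 CPM), with an interval of 1.12 to 3.71.

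Genes often used as interferon reporters were scarce. Isg15, a ubiquitin-like modifier, had 22 and 57 UMIs (1.46 and 3.07 CPM), a ratio of 2.11 (1.27 to 3.62), in 20 and 44 nuclei. Ifit1, which binds foreign RNA ends, had 31 and 74 UMIs (2.06 and 3.99 CPM), a ratio of 1.94 (1.26 to 3.06), of which 15 and 51 were in colonocytes (ratio 2.28). With classes weighted as in the wild-type library the Ifit1 ratio was 1.43. Ifit2 had 50 and 66 UMIs (3.32 and 3.56 CPM), Ifit3 15 and 23 (0.995 and 1.24 CPM), and Usp18, which removes Isg15 from proteins, 31 and 34 (2.06 and 1.83 CPM). The intervals of these last 3 include 1, and the Ifit3 and Usp18 ratios ranged from 1.16 to 2.26 and from 0.471 to 0.929 over the alternatives.

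Xaf1, a proapoptotic protein, had 182 and 331 UMIs (12.1 and 17.9 CPM), a ratio of 1.48 (1.23 to 1.78), in colonocytes 25 and 72 UMIs (ratio 1.94), and in unnamed epithelium 28 and 54 (ratio 1.66). Parp14, a mono-ADP-ribosyltransferase, had 945 and 1586 UMIs (62.7 and 85.5 CPM), a ratio of 1.36 (1.26 to 1.48), and in colonocytes 210 and 484 UMIs (101 and 157 CPM), a ratio of 1.55 (1.31 to 1.83). Within colonocyte cluster 10 alone Parp14 had 83 and 87 UMIs, with an interval of 0.877 to 1.64 that includes 1. Xaf1 had a ratio of 3.10 there, from 7 and 19 UMIs, and of 1.23 in cluster 7. Macrophage and dendritic markers summed to 112 and 168 UMIs in colonocytes, at 54.1 and 54.5 CPM. They stood lower in crypt nuclei (6.67 and 9.58 CPM), goblet nuclei (5.97 and 10.3 CPM) and unnamed epithelium (7.39 and 7.51 CPM). Their part in the colonocyte values was not tested.

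Several induced genes were nearly even over all nuclei. Rnf213, a large ubiquitin ligase, had 1053 and 1248 UMIs (69.8 and 67.3 CPM), and Eif2ak2, the kinase PKR, 1103 and 1375 (73.2 and 74.2 CPM). Adar, the RNA-editing enzyme, had 930 and 1101 UMIs (61.7 and 59.4 CPM), and Trim30a 235 and 310 (15.6 and 16.7 CPM, highest in macrophage and dendritic nuclei at 151 and 222 CPM). Bst2, the virus-tethering protein tetherin, had 113 and 184 UMIs (7.49 and 9.92 CPM, ratio 1.32), Ifi27 364 and 583 (24.1 and 31.4 CPM, ratio 1.30) and Ifi44 39 and 68 (2.59 and 3.67 CPM). Eif2ak2 in fibroblasts had 12 and 43 UMIs, a ratio of 2.07 (1.07 to 4.30) that was 3.68 in fibroblast cluster 16 alone, and Ifi27 was highest in enteric glia at 118 and 176 CPM.

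Samhd1 (ENSMUSG00000027639, chr2:157097533-157135265, minus strand), which hydrolyses nucleotides and so limits viral DNA synthesis, went the other way. It had 2174 wild-type and 1988 knockout UMIs (144 and 107 CPM), a ratio of 0.744 (0.699 to 0.791). Macrophage and dendritic nuclei, its highest class, had 432 and 451 CPM and did not share the difference. Colonocytes had 728 and 506 UMIs (352 and 164 CPM), a ratio of 0.467 (0.416 to 0.524), with the transcript in 338 of 1053 and 344 of 1740 nuclei. By cluster, colonocyte cluster 10, which held a larger part of the wild-type than of the knockout colonocytes, had 585 and 249 of these UMIs, a ratio of 0.487 (0.418 to 0.566), and clusters 6 and 7 had ratios of 0.899 and 0.905.

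**Figure D4:**
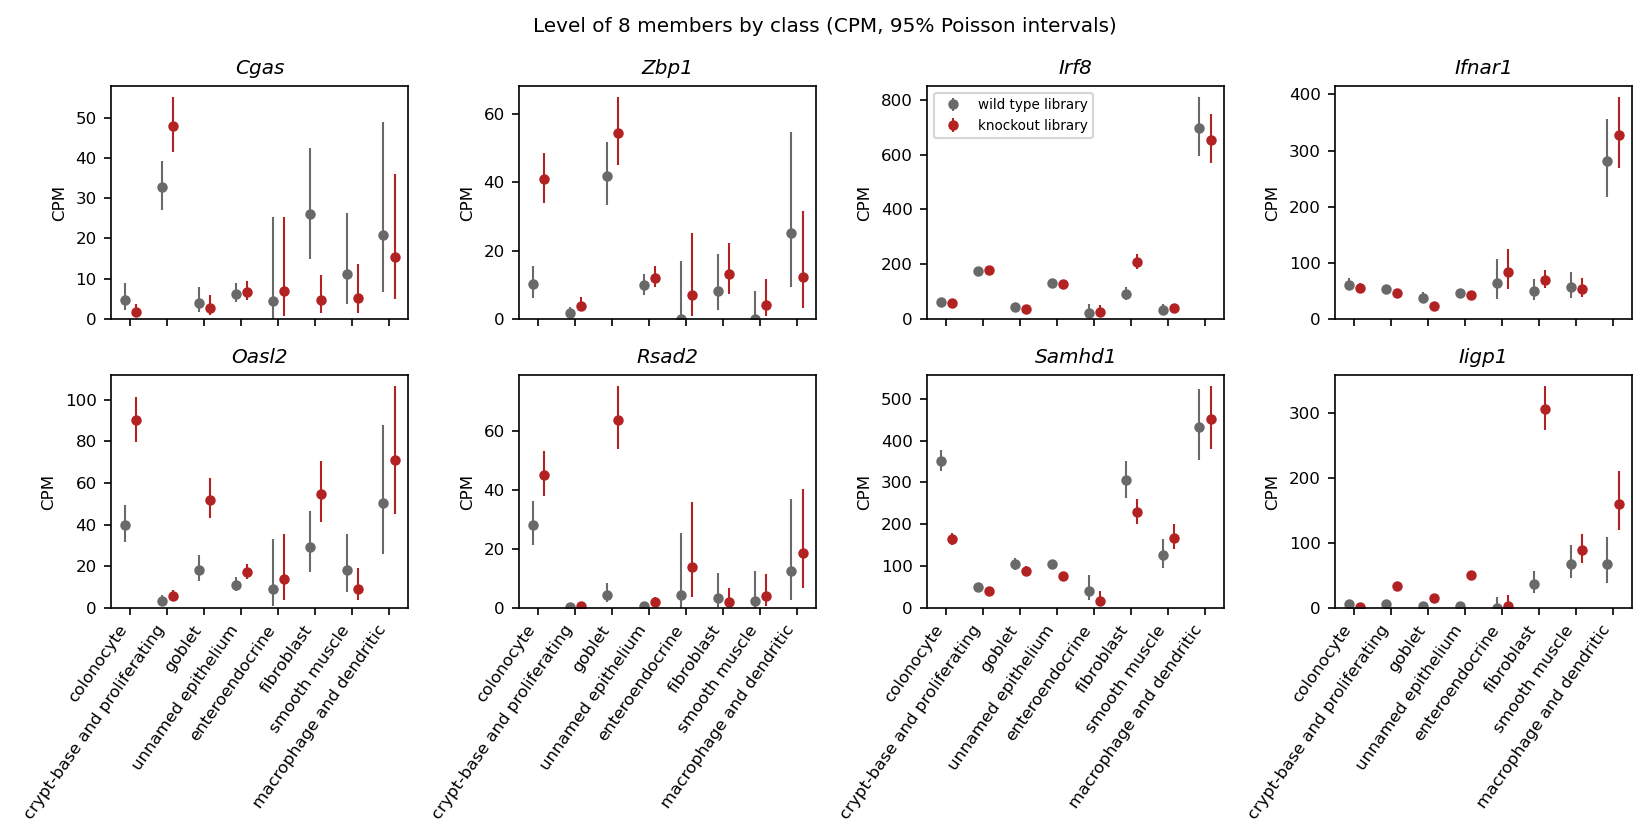
Levels in CPM (y axes, from 0) of 8 members in the 8 classes with at least 100 nuclei in each library, wild-type library in grey and knockout library in red, with 95% Poisson intervals. Zbp1 and Oasl2 in colonocytes, Rsad2 in goblet nuclei and Irf8 and Iigp1 in fibroblasts are higher in the knockout library, Samhd1 in colonocytes is lower, and Irf8 and Ifnar1 are highest in macrophage and dendritic nuclei in both.

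The interferon-induced GTPases, some of which coat and disrupt the vacuoles of intracellular microbes, had the highest median of the 4 roles over all nuclei. Their log2 ratios ran from 0.33 to 2.01. In colonocytes their median of 0.46, from 3 genes, lay below the 0.60 of the induced genes. Over all nuclei Igtp had 47 and 140 UMIs (3.12 and 7.55 CPM), a ratio of 2.42 (1.73 to 3.45). Gbp2 had 30 and 87 UMIs (1.99 and 4.69 CPM), a ratio of 2.36 (1.54 to 3.70), and Gbp3 62 and 133 (4.11 and 7.17 CPM), a ratio of 1.74 (1.28 to 2.40). With classes weighted as in the wild-type library the Gbp3 ratio was 1.47. Irgm1 had 265 and 447 UMIs (17.6 and 24.1 CPM, ratio 1.37), Irgm2 95 and 161 (6.30 and 8.68 CPM, ratio 1.38) and Gbp7 552 and 851 (36.6 and 45.9 CPM, ratio 1.25), so all 7 were above 1.

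In crypt-base and proliferating nuclei 4 of 5 measured GTPases were at least 1.5-fold higher and none was lower, beside 5.06% and 6.97% of 12359 genes. Their median log2 ratio was 0.80. Irgm1, a regulator of the other GTPases, was highest there, with 80 and 158 UMIs (22.2 and 38.8 CPM), a ratio of 1.75 (1.33 to 2.31), in 74 and 127 nuclei, and 2.96 in cluster 5 alone. In unnamed epithelium 3 of 6 were higher and none lower, beside 5.76% and 8.50% of 12336 genes, and in fibroblasts 4 of 7 beside 10.3%. Gbp7 in fibroblasts had 31 and 86 UMIs, a ratio of 1.60 (1.05 to 2.50). In stroma and muscle together 5 of 7 GTPases were higher and none lower, beside 7.13% and 9.84% of 12241 genes, where Irgm1 had 18 and 71 UMIs, a ratio of 2.48 (1.46 to 4.41).

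Iigp1 (ENSMUSG00000054072), an immunity-related GTPase, had the highest ratio of any member, with 255 and 1261 UMIs (16.9 and 68.0 CPM), a ratio of 4.02 (3.51 to 4.62). Its ratio was 3.09 with classes weighted as in the wild-type library and between 3.94 and 4.63 over the other settings. Its level was highest by far in blood endothelium, where 110 and 231 UMIs gave 1302 and 1486 CPM, a ratio of 1.14 (0.905 to 1.45). There 43.8% of 73 wild-type and 40.7% of 162 knockout nuclei carried it, so endothelial levels were close in the libraries.

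The difference in Iigp1 lay outside blood endothelium. Fibroblasts had 23 and 326 UMIs (37.5 and 307 CPM), a ratio of 8.17 (5.35 to 13.1), which was 3.77 in fibroblast cluster 16 alone (5 and 29 UMIs). Lymphatic endothelium had 11 and 114 UMIs, with a ratio of 7.80 (4.20 to 16.1). Crypt-base and proliferating nuclei had 20 and 141 (5.56 and 34.6 CPM), a ratio of 6.23 (3.89 to 10.5), with 12.9 in cluster 5 (3 and 50 UMIs) and 2.58 in cluster 8 (12 and 40 UMIs). Unnamed epithelium had 13 and 265 UMIs (2.91 and 51.0 CPM), a ratio of 17.5 (10.1 to 33.3) that ranged from 7.04 to 39.5 over the settings. The value of 7.04 came at resolution 0.5, where this class held other nuclei. A cluster like cluster 2 was not counted as epithelium there, and fewer nuclei were named crypt-base and proliferating. The part of each change was not tested. Macrophage and dendritic nuclei had 16 and 52 UMIs (67.1 and 161 CPM), a ratio of 2.39 (1.34 to 4.49).

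A small number of nuclei carried most of these Iigp1 UMIs. In fibroblasts 20 of 395 wild-type nuclei (5.06%) and 58 of 753 knockout nuclei (7.70%) had any, with a mean of 1.15 and 5.62 UMIs in each such nucleus. None of the wild-type and 20 of the knockout fibroblast nuclei held 5 or more. In unnamed epithelium 6 and 25 nuclei carried the transcript, and the top knockout nucleus held 49 UMIs, 18.5% of the total there. Over all nuclei, 13 wild-type and 74 knockout nuclei held at least 5 Iigp1 UMIs, and these held 39.6% and 74.1% of each library's Iigp1 UMIs. Of the 74, 25 were epithelial, 46 stromal and 3 immune, and 51 lay outside blood and lymphatic endothelium. Of these 51, 1 had a UMI of any of 7 blood endothelial markers (1.96%), close to the 1.90% of the other 10622 knockout nuclei outside endothelium.

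**Figure D5:**
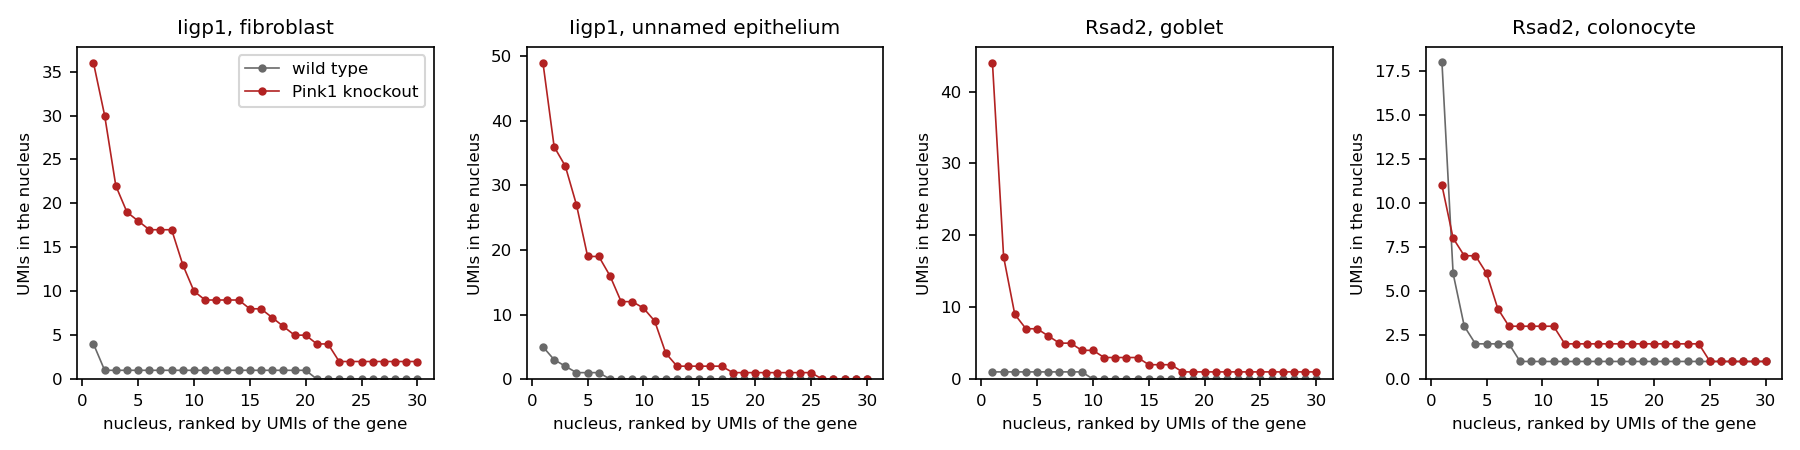
UMIs of Iigp1 or Rsad2 (y axes) in the 30 nuclei with the most, ranked along the x axis, in fibroblasts, unnamed epithelium, goblet nuclei and colonocytes of the wild-type (grey) and knockout library (red). The knockout curves of Iigp1 start at 36 and 49 UMIs where the wild-type curves start at 4 and 5, and for Rsad2 in colonocytes the top wild-type nucleus (18 UMIs) exceeds the top knockout one (11).

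Rsad2 was also concentrated in few nuclei. At least 5 Rsad2 UMIs were found in 3 wild-type and 14 knockout nuclei, and 13 of the 14 were epithelial, 8 of them goblet and 5 colonocyte. Among the 74 knockout nuclei rich in Iigp1, 41 had a Gbp7, 18 an Igtp, 23 an Irgm1, 22 a Parp14, 7 an Oasl2 and 2 a Rsad2 UMI. Among the 14 rich in Rsad2, 5 had a Gbp7, 1 an Igtp, 4 an Irgm1, 9 a Parp14, 8 an Oasl2 and 1 an Iigp1 UMI. Over all knockout nuclei, 5.42% had a Gbp7, 0.985% an Igtp, 3.38% an Irgm1, 11.5% a Parp14, 3.83% an Oasl2, 1.53% a Rsad2 and 2.58% an Iigp1 UMI. Of the 13 wild-type nuclei rich in Iigp1, 8 were blood endothelial, as were 17 of the 74 knockout ones. Among the 13, 9 had a Gbp7, 3 an Igtp, 5 an Irgm1, 8 a Parp14, 2 a Rsad2 and none an Oasl2 UMI. The shares over all wild-type nuclei are not given here. These sets were defined after the values were seen, and the counts are a description with no test. In the knockout library the Rsad2 nuclei were deeper than the Iigp1 nuclei (median 2245 against 1301.5 UMIs).

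The induced genes and GTPases, Iigp1 and Rsad2 among them, were also summed per nucleus, with every nucleus thinned to 500 UMIs. The sum thus repeats in part what these genes showed alone. It also includes Samhd1, the gene of the sum with the most UMIs, which had a colonocyte ratio of 0.467. The part of Samhd1 in the values below was not tested. At least 3 such UMIs were found in 126 of 8256 wild-type nuclei (1.53%, exact interval 1.27% to 1.81%) and 285 of 10966 knockout nuclei (2.60%, 2.31% to 2.91%), a ratio of 1.70 (1.38 to 2.12). Fibroblasts had 6 of 395 (1.52%) and 43 of 753 (5.71%), a ratio of 3.76 (1.59 to 10.8), and immune nuclei 28 of 380 (7.37%) and 42 of 497 (8.45%), a ratio of 1.15 (0.694 to 1.92). Colonocytes had a ratio of 1.14 (0.704 to 1.90), goblet nuclei 1.26 (0.590 to 2.78) and smooth muscle nuclei 1.00 (0.301 to 3.80). Without thinning the shares over all nuclei were 12.3% and 12.5%, a ratio of 1.02 (0.936 to 1.10), and the colonocyte ratio was 0.776 (0.651 to 0.926). At least 5 thinned UMIs gave 24 and 107 nuclei, a ratio of 3.36 (2.14 to 5.47). As a gauge of free RNA, the goblet mucin gene Muc2 had a UMI in 22.5% of wild-type and 18.4% of knockout smooth muscle nuclei at 500 UMIs.

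Of 8 sensing genes measured in immune nuclei, none was at least 1.5-fold higher and 3 were lower, beside 11.1% and 16.1% of 7463 genes, with a median log2 ratio of -0.25. Irf3 had 46 and 29 UMIs (100.6 and 55.6 CPM), a ratio of 0.553 (0.335 to 0.899). The immune make-up differed: B nuclei were 99 wild-type and 35 knockout, and macrophage and dendritic nuclei 166 and 280. In the latter class none of 5 sensing genes was higher and 2 were lower, beside 15.0% and 14.8% of 5036 genes, with a median of -0.28. Of 9 induced genes there, 1 was higher and 1 lower. What the make-up adds to the immune values was not tested.

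Blood endothelium was the highest class of more members than any other when small classes were ranked too, by the mean CPM of the libraries among classes with at least 20 UMIs of the gene. Of 43 members with enough UMIs in some class, 14 were highest there, 9 in colonocytes and 8 in macrophage and dendritic nuclei. Rnf213 had 343 and 129 CPM there from 29 and 20 UMIs, Rsad2 178 and 90.1 CPM from 15 and 14 UMIs, and Ifi44 154 and 77.2 CPM from 13 and 12 UMIs. Gbp7 had 31 UMIs in each library (367 and 199 CPM), a ratio of 0.543 (0.319 to 0.924). All 4 stood lower in the knockout library there, 3 of them on fewer than 50 UMIs in all and 2 of them (Rsad2 and Ifi44) with intervals of the ratio that include 1, while Iigp1, Stat2 and Parp14 had ratios of 1.14, 1.14 and 1.49 with intervals that include 1. The 9 goblet markers summed to 394 and 183 UMIs in the same nuclei (4664 and 1177 CPM), and their part in these values was not tested. By the same ranking Irf3, Ddx58, Gbp3, Ifnar2, Adar, Xaf1 and Oasl2 were highest in blood endothelium, each from 6 to 21 UMIs per library. B nuclei, with too few UMIs to be ranked, stood higher for Irf3 (137 and 132 CPM, from 12 and 4 UMIs) and Ddx58 (from 10 and 3 UMIs), with wide intervals.

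By that ranking, some members had their highest level elsewhere. Bst2 was highest in lymphatic endothelium, with 7 and 26 UMIs (65.3 and 182.6 CPM), and Irgm2 in macrophage and dendritic nuclei, with 6 and 15 (25.2 and 46.3 CPM). Igtp, Gbp2 and Ifit2 were highest in fibroblasts, each from 7 to 24 UMIs per library. Isg15 was highest in colonocytes, from 6 and 22 UMIs, and Eif2ak2 in unnamed epithelium at 85.8 CPM in both libraries, beside 78.6 and 92.4 CPM in goblet nuclei. Apart from Ifih1, Ifnar1, Irf1, Irf7, Irf8, Oas2, Parp14, Trim30a, Samhd1 and Gbp7, the intervals of the 2 highest large classes overlapped in 1 or both libraries wherever 2 could be ranked.

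Other genes of the pathway gave the wider frame. Of 95 listed genes that are not members, 82 had at least 20 UMIs over all nuclei. Of these, 17 were at least 1.5-fold higher and none lower, beside 6.51% and 8.07% of 16563 genes. Their median log2 ratio was 0.21 and that of all genes -0.02. The highest ratios among those with at least 50 UMIs were those of Cxcl10, a chemokine that attracts T cells, with 15 and 65 UMIs (ratio 3.52), Nlrc5, which activates class I antigen presentation genes, with 43 and 147 (2.78), Ddx60, an RNA helicase, with 444 and 1342 (2.46), and Ifitm1, a membrane restriction factor, with 21 and 60 (2.32). The lowest were Rnaseh2a at 132 and 116 UMIs (0.715), Ifnk at 35 and 31 (0.720), Slfn8 at 44 and 39 (0.721) and Rnf135 at 145 and 129 (0.724). No UMI of Ifnb1, Ifng, Ifnl2, Ifnl3 or Ifne was found in either library, which allows up to 0.199 CPM of each among wild-type and 0.162 CPM among knockout nuclei.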

How the data were processed

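The authors deposited UMI counts per gene and barcode for 2 single-nucleus 3' libraries of mouse colon, the mm10 (GRCm38) build being named in the submitters' processing notes and Cell Ranger 6.1.2 in the file headers. The annotation used for counting and the treatment of introns were not given in the sources used here. Barcodes with at least 500 UMIs, 300 genes and at most 10% mitochondrial UMIs were kept, and the top Scrublet scores (0.8% per 1000 barcodes, 632 wild-type and 1180 knockout) were removed as doublets. Nuclei of both libraries were clustered together with scanpy 1.11.5 and leidenalg 0.10.2 (2000 variable genes without the members, 30 components, 20 neighbours, resolution 1), which gave 30 clusters. Clusters were named from marker lists, so every class name means nuclei like that type. Clusters 1, 2 and 3, epithelial in their place but without 3 markers, are called unnamed epithelium, and cluster 14 enters only the values over all nuclei. These rebuilt names need not match the study's own.

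Counts were summed per library and class. Ratios carry exact conditional binomial intervals, levels exact Poisson intervals and shares exact Clopper-Pearson intervals, all at 95% and for counting error only. The floor for a gene without UMIs is 3 counts per library. Log2 ratios had 0.5 added to each count. The ratio and interval code was tested on simulated Poisson counts of summed nuclei, which hold no clustering of UMIs in single nuclei. Depth was 15077042 wild-type and 18539112 knockout nuclear-encoded UMIs. With 1 library per genotype no test was run. The members, their roles and the lists were chosen with earlier results of these data known. Named are all members, the classes where a member was highest or had at least 50 UMIs and a ratio of at least 1.5-fold with an interval without 1, and the 4 highest and 4 lowest other pathway genes. A further pathway gene, named outside that ranking, is not reported here. Classes of 30 to 99 nuclei, single clusters and nuclei with at least 5 UMIs of a gene were added after the values were seen. Alternatives changed the filters, doublet removal, scaling, depth, resolution and weighting.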

Additional observations from a re-analysis of the deposited data

Results flagged for a closer look

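In 5 members the libraries differed in opposite directions between classes, with every counting interval on 1 side of 1. None of these differences between classes was tested, since each class has 1 library per genotype. The share of all genes with the same pattern is not given here, so whether 5 members are many cannot be said. Cgas had a ratio of 1.46 in crypt-base and proliferating nuclei and 0.180 in fibroblasts, where it rests on 16 wild-type and 5 knockout UMIs and where 1 wild-type nucleus held 6 of the 16. Tbk1 had ratios of 1.65 in fibroblasts, 1.21 in unnamed epithelium and 0.818 in goblet nuclei. Stat2 had ratios of 1.40 in fibroblasts, 1.25 in goblet nuclei and 1.28 in unnamed epithelium, and 0.797 in crypt-base and proliferating nuclei. Irf1 had ratios of 2.36 in fibroblasts and 1.47 in crypt-base and proliferating nuclei, and 0.790 in colonocytes and 0.455 in smooth muscle nuclei, the last from 18 and 14 UMIs. Gbp7 had ratios of 1.47 in colonocytes, 1.60 in fibroblasts and 1.49 in unnamed epithelium, and 0.753 in goblet nuclei.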

How the results depend on the processing

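No paired analysis was possible because each genotype has 1 library. Of 73 member ratios described, 9 moved by over 1.5 times under some alternative: Eif2ak2 and Irf1 in fibroblasts, Ifit3 and Usp18 over all nuclei, Iigp1, Oas2 and Xaf1 in unnamed epithelium, and Rsad2 in colonocytes and goblet nuclei. Oas2 in unnamed epithelium reversed to 0.874 at resolution 0.5. At that resolution and under the looser filter, the cluster led by E230034D01Rik and Plet1 (2189 and 1755 nuclei) was not counted as epithelium. In the main setting the like cluster 2 belonged to unnamed epithelium, so values of this class under these alternatives rest on other nuclei. At resolution 0.5 the crypt-base and proliferating clusters also held 890, 883 and 695 nuclei, beside 1932, 1028, 895 and 697 in the main setting. What each change adds was not tested. In clusters taken alone, which were looked at after the values were seen, Oasl2 reversed to 0.858 in colonocyte cluster 10 and to 0.931 in cluster 1 of unnamed epithelium, and Xaf1 to 0.788 in the latter. The median log2 ratio of sensing genes in unnamed epithelium became -0.036 under the looser filter, -0.033 at resolution 0.5 and 0.44 after thinning to 500 UMIs, and in goblet nuclei 0.39 after thinning. The induced-gene median in goblet nuclei became 0.014 after thinning, and in macrophage and dendritic nuclei 0.044 under the stricter filter, 0.56 without the nucleus with the most UMIs and 0.58 after thinning. The ratio of shares of nuclei with several induced UMIs over all nuclei was 2.40 without doublet removal, 1.02 unthinned, 1.35 at 2 or more UMIs and 3.36 at 5 or more. In epithelium it was 2.43, 0.934 unthinned and 3.63 at 5 or more, in stroma and muscle 1.29 under the stricter filter and 1.19 unthinned, and in immune nuclei 2.68 at 5 or more. After thinning, only 25 of the 43 members ranked in the main setting kept their highest large class. How many of the others had too few UMIs left to be ranked is not given here. The cause of these shifts was not tested.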
